A study of Mus musculus with 3 samples.

Results

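The let-7 family and miR-98 were followed in regenerating mouse muscle as 10 mature miRNAs taken by name from the 1138 miRNAs listed for every library. They were the 5p miRNAs mmu-let-7a-5p, mmu-let-7b-5p, mmu-let-7c-5p, mmu-let-7d-5p, mmu-let-7e-5p, mmu-let-7f-5p, mmu-let-7g-5p, mmu-let-7i-5p and mmu-miR-98-5p, and mmu-let-7i-3p, which is cut from the other arm of the let-7i hairpin. All 10 were detected in every library. Small RNAs of 18 to 30 nucleotides were sequenced from the tibialis anterior (TA), a shin muscle, of wild-type C57BL/6 mice aged 10 weeks. Muscles were taken on day 0, which the paper describes as uninjured, and on day 1 and day 3 after injury with cardiotoxin (CTX). CTX is a toxin from snake venom that kills muscle fibres. Every library was a pool of 4 samples, which left 1 library per day, 3 in all, and no replicates. Saline was the control injection of the study, and the labels do not say whether the day 0 muscles received it.

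let-7 is one of the first miRNA families described and is conserved from worms to humans. A miRNA guides Argonaute to target mRNAs through its seed, bases 2 to 8, and the let-7 seed is known to repress growth genes such as Hmga2, Ras and Myc genes and Lin28, as well as Il6. let-7 levels are low in embryonic and progenitor cells and high in differentiated cells, muscle included, and the RNA-binding protein LIN28 blocks the maturation of many let-7 precursors by binding their terminal loop, often at a GGAG motif. One arm of each hairpin, the 5p arm in let-7, is usually kept in Argonaute, and the 3p strand is mostly degraded.

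The mature sequences are shown because the 9 members from the 5p arm differ from each other at so few bases. They were taken from RefSeq (GRCm38.p6), where all 10 members were matched, and are written 5′ to 3′ with the seed in capitals.
let-7a-5p: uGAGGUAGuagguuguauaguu
let-7b-5p: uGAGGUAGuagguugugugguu
let-7c-5p: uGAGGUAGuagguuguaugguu
let-7d-5p: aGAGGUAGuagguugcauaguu
let-7e-5p: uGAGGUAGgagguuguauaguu
let-7f-5p: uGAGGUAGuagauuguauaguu
let-7g-5p: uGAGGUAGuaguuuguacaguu
let-7i-5p: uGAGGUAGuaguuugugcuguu
miR-98-5p: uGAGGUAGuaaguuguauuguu
let-7i-3p: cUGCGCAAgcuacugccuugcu
The 9 members from the 5p arm had 1 seed, and let-7i-3p had another. Counted from 1 at the 5′ end and with the base of let-7a-5p first, let-7c-5p differed from let-7a-5p by A19G, let-7e-5p by U9G, let-7f-5p by G12A, and let-7b-5p by A17G and A19G. let-7d-5p carried U1A and U16C, and miR-98-5p carried G11A and A19U. let-7g-5p carried G12U and U18C, and let-7i-5p, the most distant from let-7a-5p, carried G12U, A17G, U18C and A19U. Over the 36 pairs the number of differences ran from 1 to 6, and 4 pairs differed at 1 base. How reads that fit more than 1 of these sequences were counted is not given in the sources used here, so values of members that differ at 1 base are uncertain to that extent.

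The members come from 12 hairpins spread over the mouse genome (GRCm38, GENCODE M21 gene models). let-7d, let-7f-1 and let-7a-1 lie together on the minus strand at chr13:48536012-48538272, in an exon of the lincRNA 6720427I07Rik. let-7c-2 and let-7b lie on the plus strand at chr15:85706603-85707403 within Lncppara, 621 bases apart. let-7c-1 (chr16:77599657-77599750, plus strand) lies in an intron of the noncoding gene Mir99ahg, 656 bases from miR-99a, and let-7e (chr17:17830352-17830444, plus strand) lies in an intron of Spaca6, 367 bases from miR-125a. let-7a-2 (chr9:41536716-41536811, plus strand) lies in an intron of the noncoding gene 3110039I08Rik, 5211 bases from miR-100. let-7g (chr9:106178840-106178927, plus strand) is intronic in Wdr82, and let-7f-2 (chrX:151912346-151912428) and miR-98 (chrX:151913214-151913321), both on the plus strand, are intronic in Huwe1, 785 bases apart. let-7i is the lone hairpin at chr10:122985640-122985724, on the minus strand, where 1 of the 2 annotated transcripts of the pseudogene D630033A02Rik holds it in an exon. let-7a-5p, let-7c-5p and let-7f-5p each come from 2 hairpins, so their reads could not be assigned to a locus.

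GGAG, searched on the strand of the hairpin, was present in 9 of the 12 hairpins and was not found in those of let-7b, let-7c-2 and miR-98. Over all 1005 mouse hairpins of the RefSeq table, 44.5% held these letters. The let-7i hairpin is printed because its 2 arms moved apart between libraries (GRCm38.p6, minus strand, both mature arms in capitals).
let-7i hairpin: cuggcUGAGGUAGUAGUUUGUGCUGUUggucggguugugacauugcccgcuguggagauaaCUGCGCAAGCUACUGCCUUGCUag

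The libraries of days 0, 1 and 3 held 8507580, 6421056 and 9795076 reads, and levels are given in CPM, reads of a miRNA per 1000000 reads of its library. CPM is a share of the reads, so it also moves when other abundant miRNAs gain or lose reads. miR-1a-3p led the reads at day 0, miR-22-3p at day 1 and miR-206-3p at day 3, and 3 reads, the smallest level taken as detectable, corresponded to 0.306 to 0.467 CPM. A miRNA was called higher or lower when its CPM differed at least 2-fold between 2 libraries and at least 10 reads were counted in 1 of them. With 1 library per time point no difference has a replicate check and no p-value is given. The 95% intervals (Wilson for levels and shares, Wald for ratios) cover counting error only, PCR copies are not independent molecules, and the spread between mice is unknown.

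The family made up a larger share of the miRNA reads in each later library. The 9 members from the 5p arm summed to 533176, 720689 and 1673969 reads on days 0, 1 and 3. The day 0 sum was 6.27% (6.25 to 6.28) of the library, the day 1 sum was 11.2% (11.2 to 11.2), and the day 3 sum was 17.1% (17.1 to 17.1). The log2 fold change of the sum was 0.84 on day 1 and 1.45 on day 3 against day 0, but with TMM factors, a scaling that centres the libraries on the bulk of the miRNAs, the day 1 value turned to -0.10 and the day 3 value was 0.52. TMM shifted every log2 fold change by -0.94 on day 1 and by -0.93 on day 3, and 401 of the 532 miRNAs compared on day 1 and 437 of the 569 compared on day 3 had a higher CPM than on day 0. Median-of-ratios factors shifted them by -1.04 and -1.12. Between day 1 and day 3 the shift was small, and the sum was higher on day 3 by a log2 of 0.61 with the library totals and 0.62 with TMM.

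**Figure D1:**
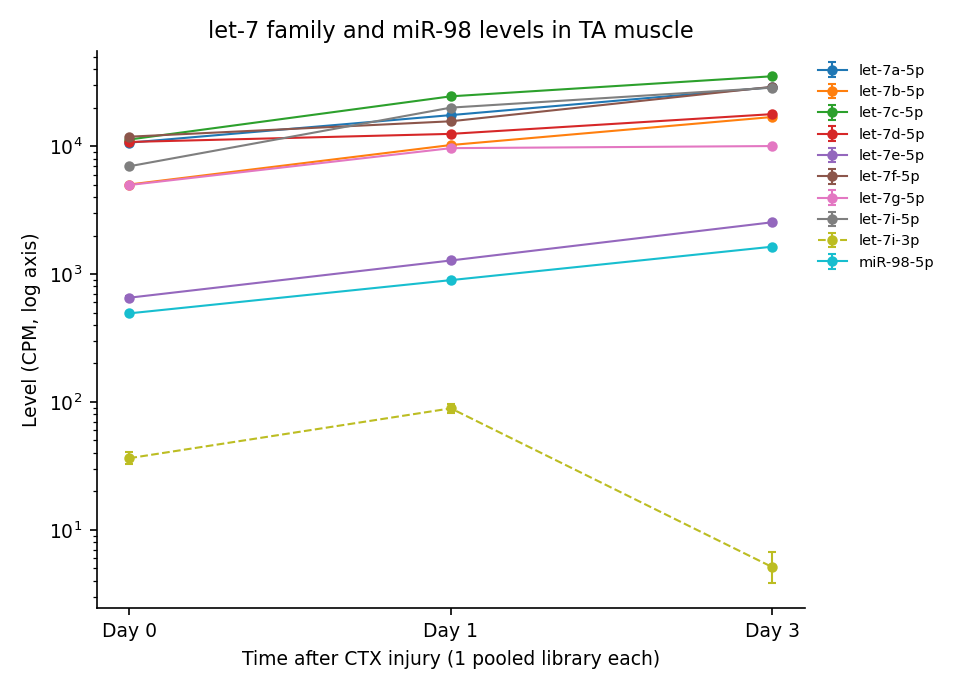
Level of each member in CPM on a log axis in the libraries of days 0, 1 and 3. Points are single pooled libraries, bars are 95% counting intervals (mostly smaller than the points), and the dashed line is let-7i-3p, the one member with a lower CPM on day 3 (5.10) than on day 0 (36.3). The CPM of the 5p members lies higher on both injured days, but with TMM or median-of-ratios scaling the day 1 direction of let-7a-5p, let-7d-5p, let-7f-5p, miR-98-5p and the sum turns, and with median-of-ratios also that of let-7b-5p, let-7e-5p and let-7g-5p; on day 3 let-7d-5p turns with either scaling and let-7g-5p with median-of-ratios.

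let-7c-5p and let-7i-5p had the largest differences in CPM on day 1. The level of let-7c-5p on days 0, 1 and 3 was 11273, 24541 and 35220 CPM. That of let-7i-5p was 6966, 20023 and 28694 CPM. Both were called higher on both days, with log2 fold changes of 1.12 and 1.64 for let-7c-5p and 1.52 and 2.04 for let-7i-5p. Their sign was positive under every scaling tried, and with median-of-ratios the day 1 values were 0.08 for let-7c-5p and 0.48 for let-7i-5p. On day 3 let-7c-5p was at 0.72 with TMM and 0.52 with median-of-ratios, both below a 2-fold difference. The day 3 value of let-7i-5p was 1.12 with TMM, still called, and 0.92 with median-of-ratios, below the threshold.

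let-7a-5p and let-7f-5p, which are made from clustered hairpins on chromosome 13 and from a further hairpin each, were higher mainly in the day 3 library. let-7a-5p stood at 10654, 17499 and 28914 CPM on days 0, 1 and 3. let-7f-5p stood at 11861, 15658 and 29141 CPM. Neither was called on day 1, where their log2 fold changes of 0.72 and 0.40 turned to -0.23 and -0.54 with TMM. Both were called higher on day 3, by a log2 of 1.44 and 1.30, and their TMM values of 0.51 and 0.37 were below a 2-fold difference.

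let-7d-5p, the third member of the chromosome 13 cluster, had the smallest log2 fold changes from day 0 with library totals, whereas with TMM its day 1 value was the largest in size of the 10 members. Its level was 10788, 12481 and 17811 CPM, and its log2 fold changes of 0.21 on day 1 and 0.72 on day 3 were below the fold threshold. With TMM they were -0.73 and -0.20, so that the direction of let-7d-5p on both days depended on the scaling. Read counts alone went from 91776 on day 0 to 80142 in the smaller day 1 library and 174462 on day 3.

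let-7b-5p and let-7g-5p began at nearly the same level and stood furthest apart on day 3. let-7b-5p was at 5014, 10211 and 16917 CPM, and let-7g-5p was at 4969, 9652 and 10023 CPM. The day 0 intervals of the pair overlapped (4967 to 5062 and 4922 to 5017 CPM), whereas those of days 1 and 3 did not, with let-7b-5p higher. let-7b-5p was called on both days, by a log2 of 1.03 and 1.75, although its day 1 value was -0.016 with median-of-ratios. Its day 3 values of 0.83 with TMM and 0.63 with median-of-ratios were below a 2-fold difference. let-7g-5p was 0.96 on day 1 and was called on day 3 at 1.01 (0.996 to 1.03), at the threshold, and its values were -0.08 and -0.11 with median-of-ratios. Between day 1 and day 3 let-7g-5p had a log2 fold change of 0.05, the smallest of the 10 members.

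let-7e-5p and miR-98-5p were the low members of the family. let-7e-5p stood at 653, 1277 and 2542 CPM on days 0, 1 and 3. miR-98-5p was at 493, 897 and 1637 CPM. On day 3 they were called higher by a log2 of 1.96 for let-7e-5p and 1.73 for miR-98-5p, and these values stayed positive under every scaling tried (lowest 0.84 and 0.61). On day 1 neither was called, and the values of 0.97 and 0.86 turned to -0.07 and -0.18 with median-of-ratios.

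Against day 0, 4 of the 10 members were called higher on day 1 and 0 lower, where 55.3% of the 532 miRNAs with enough reads were called higher and 12.0% lower. On day 3, 8 members were called higher and 1 lower, where 58.5% of 569 miRNAs were called higher and 10.0% lower. The median log2 fold change of the 10 members was 0.96 on day 1 and 1.54 on day 3, beside 1.28 and 1.47 over all miRNAs tested. How the members' count stood to this background on day 3 turned with the scaling, since with median-of-ratios 0 members were called higher beside 35.1% of all miRNAs tested. Between day 1 and day 3, 0 members were called higher and 1 lower, beside 25.0% and 17.7% of 583 miRNAs, and the median of the members was 0.62 beside 0.02. Since most miRNAs tested had far fewer reads than let-7, the 145 miRNAs with a mean of at least 1000 reads, a limit chosen after the values were seen, were also counted. These include the 9 members from the 5p arm. Their median was 0.86 on day 1 and 0.73 on day 3, 45.5% of them were called higher on each day, and 11.0% and 14.5% were called lower. Between day 1 and day 3 their median was -0.15, with 13.1% called higher and 20.7% lower. With TMM, 0 members were called on day 1, beside 35.2% of all miRNAs tested called higher and 24.2% lower. On day 3 with TMM, let-7e-5p and let-7i-5p were called higher and let-7i-3p lower, beside 39.4% higher and 22.1% lower.

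**Figure D2:**
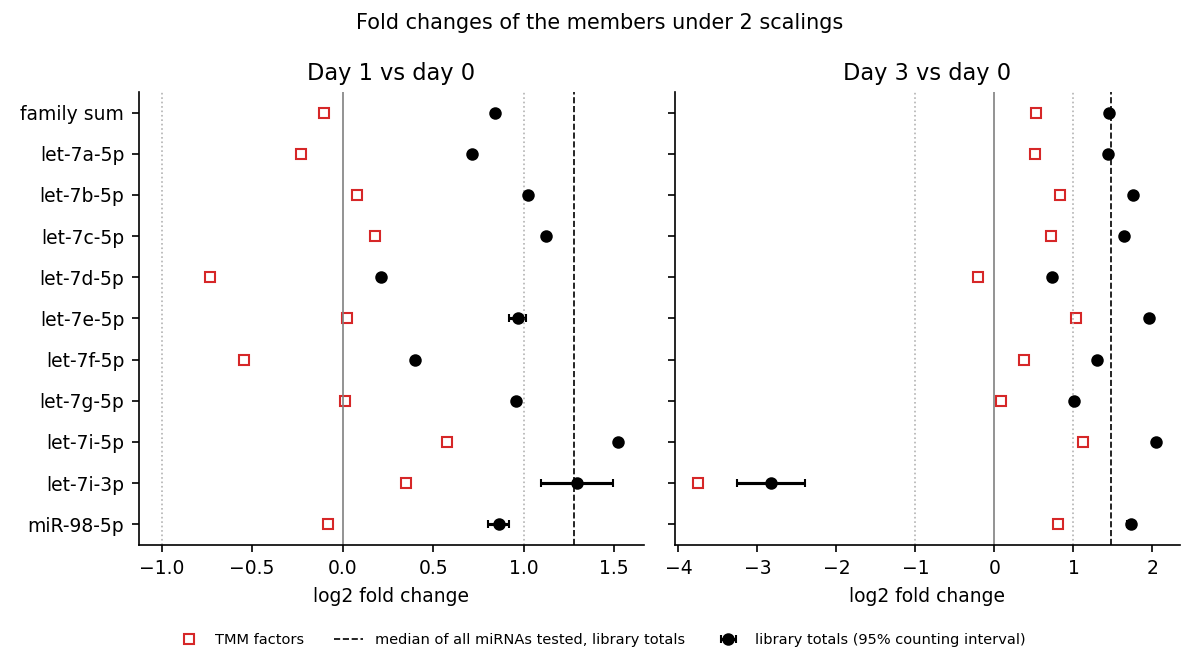
Log2 fold change of each member and of the sum of the 9 members from the 5p arm, on day 1 (left) and day 3 (right) against day 0. Filled circles use library totals with 95% counting intervals, open squares use TMM factors, dotted lines mark a 2-fold difference and dashed lines the median of all miRNAs tested with library totals (1.28 and 1.47). The sum moves from 0.84 to -0.10 on day 1 and from 1.45 to 0.52 on day 3 when TMM factors replace the library totals, and let-7i-3p stands apart on day 3 at -2.83.

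The make-up of the family within each library does not depend on how libraries are scaled to each other. On day 0 the order of the levels was let-7f-5p, let-7c-5p, let-7d-5p, let-7a-5p, let-7i-5p, let-7b-5p, let-7g-5p, let-7e-5p and miR-98-5p. The intervals of let-7d-5p and let-7a-5p overlapped there, as did those of let-7b-5p and let-7g-5p. On day 1 the order was let-7c-5p, let-7i-5p, let-7a-5p, let-7f-5p and let-7d-5p, and on day 3 it was let-7c-5p, let-7f-5p, let-7a-5p, let-7i-5p and let-7d-5p, with the other 4 members in the places they had on day 0. No neighbouring intervals overlapped on these 2 days, which says only that counting error did not cover the gaps.

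let-7i-5p gained the most within the family and let-7d-5p gave up the most. let-7i-5p held 11.1% (11.0 to 11.2) of the family reads at day 0, and 17.8% and 16.8% on days 1 and 3. let-7d-5p held 17.2% (17.1 to 17.3) at day 0, then 11.1% and 10.4%. For each read of let-7d-5p there were 0.646 (0.639 to 0.652) reads of let-7i-5p in the day 0 library, 1.60 (1.59 to 1.62) in the day 1 library and 1.61 (1.60 to 1.62) in the day 3 library. The deposited expression values, a second column beside the reads, gave ratios of 0.738, 1.35 and 1.25, so the order of the pair turned over in both columns.

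let-7c-5p made up 18.0%, 21.9% and 20.6% of the family reads at the 3 times. The deposited expression values gave 16.7%, 18.3% and 16.5%, so its share was above day 0 on day 3 in the reads alone. These values lie further below the reads where reads are many. On day 3 let-7c-5p had a value of 118717 beside 344987 reads, and let-7e-5p had 21574 beside 24896. They therefore flatten differences between high and low members and are no independent check of the shares. let-7f-5p went from 18.9% to 14.0% on day 1 and stood at 17.1% on day 3. let-7a-5p stayed between 15.6% and 17.0%. let-7b-5p held 8.0%, 9.10% and 9.90%, and let-7g-5p held 7.93%, 8.60% and 5.86%. The ratio of let-7i-5p to let-7g-5p, each made from 1 hairpin, was 1.40, 2.07 and 2.86 in the reads, and 1.29, 1.64 and 1.75 in the expression values. The low members held small shares, from 1.04% on day 0 to 1.49% on day 3 for let-7e-5p and from 0.786% to 0.958% for miR-98-5p. The expression values gave larger ones, from 1.53% to 3.0% for let-7e-5p and from 1.17% to 2.04% for miR-98-5p.

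**Figure D3:**
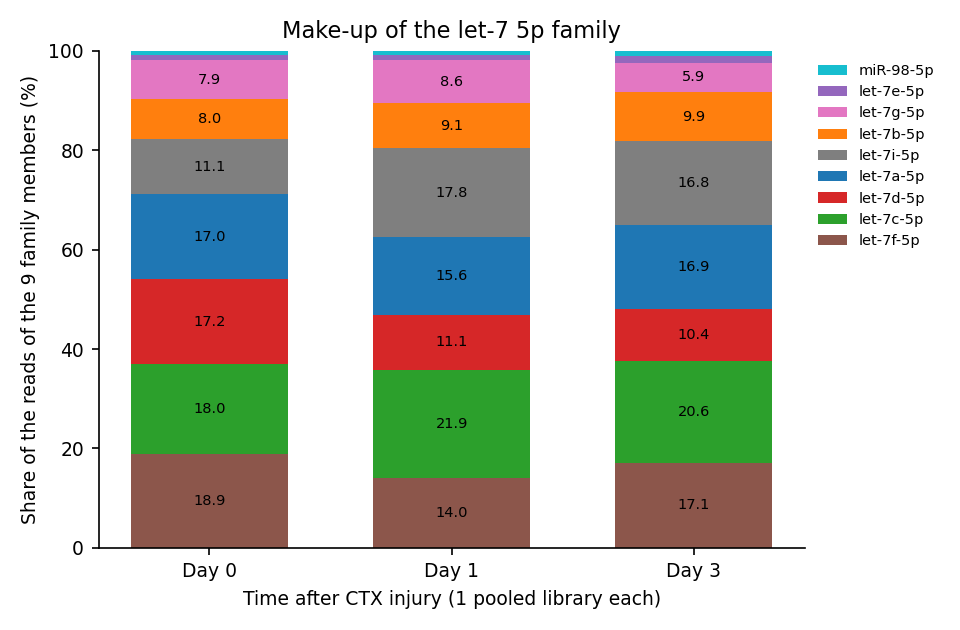
Share of each of the 9 members from the 5p arm in the family reads of each library, in percent, stacked to 100 (1 pooled library per day). let-7i-5p widens from 11.1% on day 0 to 17.8% on day 1 and let-7d-5p narrows from 17.2% to 11.1%; the shares of let-7e-5p and miR-98-5p, at the top, are too thin for a printed value.

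The 3p strand of let-7i took its own course. let-7i-3p was counted 309 times in the day 0 library, 572 times in the day 1 library and 50 times in the day 3 library, that is 36.3 (32.5 to 40.6), 89.1 (82.1 to 96.7) and 5.10 (3.87 to 6.73) CPM. It was called higher on day 1, by a log2 of 1.29, and lower on day 3, by 7.12-fold against day 0 and 17.5-fold against day 1. These directions were the same under every scaling tried, from 0.25 to 1.37 on day 1 and from -3.95 to -2.65 on day 3 against day 0. The day 1 value with library totals was close to the median of all miRNAs tested (1.28), and with TMM (0.35) it was not called. The 5p strand of the same hairpin had its highest level on day 3, so that the 5p and 3p strands were both above day 0 on day 1 and on opposite sides of it on day 3.

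As a share of the reads of both arms, which needs no scaling, let-7i-3p made up 0.519% (0.464 to 0.580) at day 0, 0.443% (0.408 to 0.481) at day 1 and 0.0178% (0.0135 to 0.0234) at day 3. For each read of let-7i-3p the 3 libraries held 192, 225 and 5621 reads of let-7i-5p. The deposited expression values gave 3p shares of 0.724%, 0.767% and 0.0457%. With them the direction from day 0 to day 1 turned, and the day 3 share was larger than in the reads but still the lowest. These values lie far below the reads for the abundant arm alone. On day 1 they were 73189 beside 128568 reads for let-7i-5p and 566 beside 572 for let-7i-3p, which raises the 3p share. The shares of 3 further hairpins with 1 product from each arm varied less. let-7d-3p held 5.52% (5.38 to 5.66), 5.13% (4.98 to 5.28) and 5.54% (5.44 to 5.65) of the let-7d reads. let-7e-3p held 3.92%, 5.16% and 2.67% of the let-7e reads, and miR-98-3p held 0.262%, 0.553% and 0.280% of the miR-98 reads, on 11 to 45 reads. For let-7g, 1, 0 and 1 reads of the 3p arm were counted, and for let-7b 0, 0 and 1. A count of 0 beside the 61974 reads of let-7g-5p on day 1 allows a 3p share of up to 0.00484% by the floor of 3 reads, and of up to 0.00620% by the Wilson interval.

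Over 103 pairs of arms matched by name, each arm with at least 100 reads summed over the 3 libraries, the log2 ratio of 3p to 5p reads, with 0.5 reads added to each count, changed by a median size of 0.913 from day 0 to day 3. This comparison was chosen after the values were seen, and some pairs list the same reads for 1 arm. Among these are pairs of the miR-466 family, miR-199a and miR-199b, miR-669a and miR-669o, and miR-486a and miR-486b. For let-7i it was -4.86, the second largest of these changes in size, and from day 1 to day 3 it was -4.63, the fourth largest. From day 0 to day 1 it was -0.23, in place 84 of 103. For let-7d it was 0.01 from day 0 to day 3, the smallest change of all 103.

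**Figure D4:**
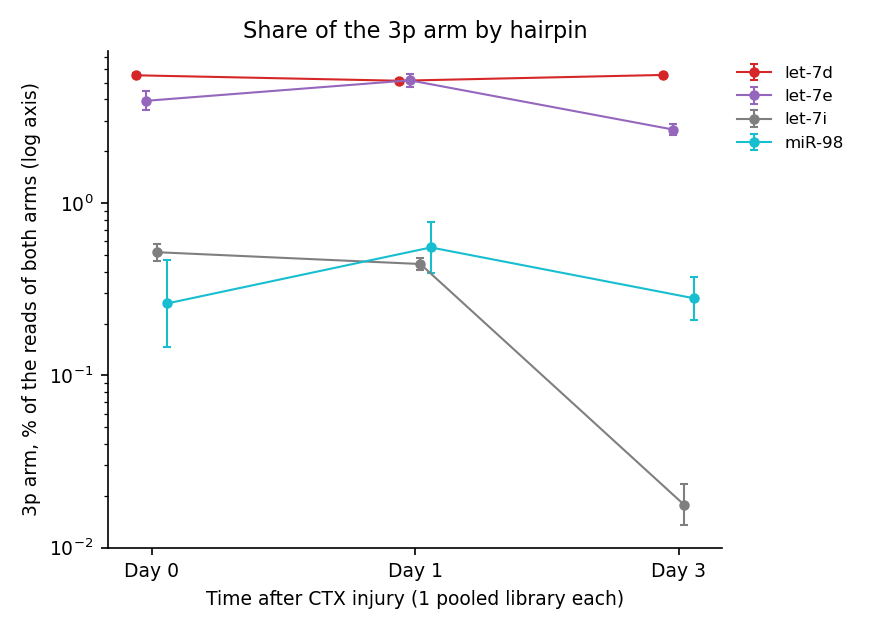
Share of the 3p arm in the reads of both arms, in percent on a log axis, for the let-7d, let-7e, let-7i and miR-98 hairpins in each library, with 95% counting intervals. The let-7i share stands at 0.519% and 0.443% on days 0 and 1 and at 0.0178% on day 3, while that of let-7d stays between 5.13% and 5.54%.

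The files listed 11 further mature arms of these hairpins, of which 8 had enough reads to be compared on each day. On day 1, 2 of the 8 were called higher and 0 lower, beside 55.3% and 12.0% of all miRNAs tested, and on day 3, 3 were higher and 1 lower, beside 58.5% and 10.0%. The medians were 0.15 and 0.43. With TMM they turned to -0.79 and -0.50, with 1 higher and 1 lower on day 1 and 1 higher and 2 lower on day 3, where the TMM shares over all miRNAs are those given above. let-7e-3p was counted 227, 446 and 683 times, and its log2 fold changes were 1.38 on day 1 and 1.39 on day 3. let-7d-3p, with the most reads of the 11, was counted 5359, 4333 and 10237 times and had log2 fold changes of 0.10 and 0.73, close to those of its 5p partner. let-7c-1-3p went from 24 reads on day 0 to 26 and 112, whereas let-7f-2-3p had 15, 13 and 7. let-7a-1-3p and let-7c-2-3p were listed with the same 683, 518 and 855 reads, and their mature sequences are identical, so that these reads entered both rows. Among other miRNAs with the let-7 seed, let-7k had 15, 22 and 26 reads, which adds nearly nothing to the family sum.

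The miR-99, miR-100 and miR-125 miRNAs share primary transcripts with let-7a-2, let-7c-1 and let-7e, and they did not move as a group. Of these 5, 2 were called higher on day 1 and 0 lower, beside 55.3% and 12.0% of all miRNAs tested, and on day 3, 1 was higher and 1 lower, beside 58.5% and 10.0%. With TMM, 0 were higher and 2 lower on each of these days, beside 35.2% and 24.2% of all miRNAs tested on day 1 and 39.4% and 22.1% on day 3. miR-125a-5p, the neighbour of let-7e, had log2 fold changes of 1.33 and 1.82, beside 0.97 and 1.96 for let-7e-5p. miR-99b-5p, of the same cluster, had 0.32 and 0.89. miR-100-5p, the neighbour of let-7a-2, had -0.64 and -1.17, whereas let-7a-5p had 0.72 and 1.44. miR-99a-5p, next to let-7c-1, had -0.15 and -0.30 beside 1.12 and 1.64 for let-7c-5p, and miR-125b-5p had 1.02 and 0.59. All of these are values with library totals, and TMM lowers each by the shifts given above, which turns the day 1 values of miR-99b-5p and let-7a-5p and the day 3 values of miR-99b-5p and miR-125b-5p negative.

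Among the 93 other miRNAs with at least 1000 reads in every library, the pattern nearest to that of the family sum was that of miR-1198-5p, with log2 fold changes of 0.82 and 1.38, a distance of 0.07 on the log2 scale. miR-872-5p followed at 0.27, then miR-199a-3p and miR-199b-3p, listed with identical reads, at 0.30, and miR-423-3p at 0.33. Each pattern rests on 2 fold changes that share the day 0 library. For let-7i-3p, the nearest of 207 miRNAs with at least 100 reads in every library was miR-204-5p, at 0.46 on day 1 and -1.72 on day 3, a distance of 1.38. let-7i-3p itself had 50 reads on day 3, so this minimum leaves out miRNAs that are as low there. miR-30c-5p, miR-30a-5p, miR-338-3p and miR-30e-5p followed.

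miRNAs that mark the cell types of injured muscle also differed between the libraries. The 6 myofiber miRNAs, miR-1a-3p and miR-133a-3p among them, summed to 26.2%, 8.69% and 9.75% of the reads at days 0, 1 and 3. With library totals 4 of the 5 compared were called lower on day 1, beside 12.0% of all miRNAs tested, and on day 3, 4 of 6 were lower, beside 10.0%. The 1 called higher on day 3 was miR-208b-3p, with 4 and 10 reads on days 0 and 3 (log2 fold change 1.12, -0.55 to 2.79). miR-133b-3p, of the same list, was at 1240, 247 and 1644 CPM. It was called lower on day 1 (log2 fold change -2.33) but stood above day 0 on day 3 (0.41, not called). miR-206-3p, a miRNA of activated and differentiating myoblasts, held 1.24%, 0.478% and 18.0%. The 5 leukocyte miRNAs summed to 0.501%, 1.89% and 0.668%, a sum in which miR-150-5p, common in lymphocytes, had 4733, 8307 and 3197 CPM. miR-223-3p, a miRNA of neutrophils and other myeloid cells, stood at 97.8, 7815 and 1896 CPM, and over the list the median log2 fold changes were 5.38 (day 1) and 4.28 (day 3). These medians hide a split list. Of the 5, 3 were called higher on both days, beside 55.3% and 58.5% of all miRNAs tested, and these include both arms of the miR-142a hairpin. miR-155-5p (0.77 and 0.72) and miR-150-5p (0.81 and -0.57) were not called. The 2 endothelial miRNAs summed to 5.94%, 13.3% and 5.87%. The 2 erythrocyte miRNAs held 0.714%, 2.53% and 1.26%, and the 3 stromal ones held 0.202%, 0.369% and 0.624%. None of these markers was at 0 in any library, and the 4 epithelial, 1 liver and 1 neuron miRNAs each summed to at most 0.0177%. These low sums were not flat. All 4 epithelial miRNAs were called higher on both days (medians 3.74 and 3.24), beside 55.3% and 58.5% of all miRNAs tested. Of these, miR-200c-3p had 38, 1015 and 706 reads. The liver miRNA miR-122-5p was called higher on both days (2.26 and 1.30), and the neuron miRNA miR-124-3p on day 1 only (2.60, then -0.40). let-7 is expressed in many cell types, and the part of the changing mix in the let-7 values was not tested. In bulk tissue, fewer cells of a type and less RNA per cell cannot be told apart.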

How the data were processed

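The authors sequenced 1 library per time point, pooled from 4 samples, on the BGISEQ platform. The submitters' processing notes name HISAT, Bowtie2 and GRCm38.p6. The authors deposited raw read counts for 1138 miRNAs, and a deposited expression value, treated here as a score, whose making is not given in the sources used here. It never exceeded the read count, and it lay further below it for miRNAs with many reads. On day 3 it was 50 beside 50 reads for let-7i-3p and 168191 beside 1763128 for miR-206-3p.

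Read counts were divided by library totals (8507580, 6421056 and 9795076). A miRNA was called at a 2-fold difference with at least 10 reads in 1 library of the pair, with 0 reads set to a floor of 3. Intervals are 95% Wilson or Wald. The study gives a fold and an FDR, and its test is not given in the sources used here. On simulated reads with 200 of 1138 miRNAs changed 4-fold up or down from at least 100 reads, 95.0% (day 1 against day 0) and 100% (day 3 against day 0 or day 1) of these were called correctly. Correct here means by the resulting change in the share of the reads, and only counting error was simulated. The simulation therefore says nothing about which scaling between libraries is right. Alternatives were TMM (edgeR 4.0.16), median-of-ratios (DESeq2 1.42.0), totals lacking the 10 most abundant miRNAs or lacking the members, the expression values, a pseudocount of 1 CPM, other folds and minimums, and Fisher's exact test at an adjusted p of 0.001. Scripts ran in Python 3.11.15, pandas 2.3.3, scipy 1.17.1 and R 4.3.3. Named miRNAs were the members, the other arms, other miRNAs with the seed, cluster partners, cell type markers, and the 5 nearest patterns to the sum and to let-7i-3p. Members and lists were chosen with earlier results of these data known.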

Additional observations from a re-analysis of the deposited data

Results flagged for a closer look

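let-7i-3p moved in opposite directions on the 2 injured days, up on day 1 (log2 fold change 1.29, from 309 to 572 reads) and down on day 3 (-2.83, to 50 reads). The day 1 value was close to the median of all miRNAs tested (1.28). It was 0.35 with TMM and 0.25 with median-of-ratios, below a 2-fold difference. The difference between the day 3 and day 1 values with library totals, -4.13 on the log2 scale, equals the fold change of day 3 against day 1. It rests on 1 pooled library per day and was not tested.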

How the results depend on the processing

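No paired analysis was possible because each time point has 1 library. The family sum on day 1 was 0.84 on the log2 scale, and it was -0.10 with TMM, -0.20 with median-of-ratios, 0.22 with totals that left out the 10 most abundant miRNAs, 0.92 with totals without the members and 0.12 with the deposited expression values. In the same order the day 3 value of 1.45 became 0.52, 0.33, 0.94, 1.62 and 0.53, and the day 3 against day 1 value of 0.61 became 0.62, 0.53, 0.71, 0.71 and 0.41. The 4 members called on day 1 became 0 with TMM, 0 with median-of-ratios, 0 without the top 10, 0 with the expression values and 0 at a 4-fold threshold, 6 without the members and 8 at 1.5-fold. For the expression values, totals without the members and other folds, no share over all miRNAs was counted. Those member counts, in every comparison, therefore cannot be set against a background and show only how the calls depend on the setting. The 9 called on day 3 became 3 with TMM, 1 with median-of-ratios and 6 without the top 10. They became 3 with the expression values and 2 at 4-fold, both without such a share. Over all miRNAs tested, TMM called 35.2% higher and 24.2% lower on day 1 and 39.4% and 22.1% on day 3, and median-of-ratios 33.1% and 25.9%, then 35.1% and 24.8%. Without the top 10 these shares were 42.7% and 20.7% on day 1 and 49.7% and 16.3% on day 3. The 1 called between day 1 and day 3 became 2 with TMM, 3 without the top 10, 2 without the members, 3 with the expression values and 6 at 1.5-fold, of which 1 (let-7i-3p) was lower in each case. Over all miRNAs tested, 25.4% were higher and 17.5% lower there with TMM, and 26.6% and 16.5% without the top 10. The counts without the members, with the expression values and at 1.5-fold have no such share. Called values of let-7b-5p on day 1 (-0.016) and let-7g-5p on day 3 (-0.11) turned negative with median-of-ratios. Of the 10 signs on day 1, 4 turned with TMM and 7 with median-of-ratios, and on day 3, 1 and 2. The let-7i-3p share of both arms was 0.724%, 0.767% and 0.0457% by the expression values. Of all miRNAs called on day 1, 82.1% were higher with library totals, 59.2% with TMM and 56.1% with median-of-ratios, and on day 3, 85.4%, 64.0% and 58.7%. The scaling itself made these shifts, and which scaling is nearer to the amount of RNA per muscle cannot be told from 3 unreplicated libraries. Depth limits the arms with few reads, such as let-7i-3p on day 3. The counting intervals of let-7g-5p on day 3 (0.996 to 1.03) and let-7e-5p on day 1 (0.92 to 1.02) span a 2-fold difference. The scaling moved these 2 values far more, to 0.09 and 0.02 with TMM.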
